A study of Rattus norvegicus with 9 samples.

Results

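The genes described here encode the matrix metalloproteinases (Mmp), their tissue inhibitors (Timp), the secreted ADAMTS proteases (Adamts) and the ADAMTS-like proteins (Adamtsl). They were taken by symbol alone: every row of the gene table whose name was one of these stems followed by a number was kept, which gave 46 of 19085 genes. The 46 comprised 18 Mmp, 4 Timp, 19 Adamts and 5 Adamtsl genes. Of these, 40 had enough reads to be tested, and the other 6 (Mmp10, Mmp21, Mmp27, Adamts18, Adamts19 and Adamts20) are given by their counts. Mmp1, Mmp7, Mmp8 and Mmp20 were not analysed here. Polyadenylated RNA was sequenced from primary osteoblasts that had been digested out of the calvaria, the flat skull bones, of male Sprague-Dawley rats aged 24 hours, although the tissue label reads knee. All 3 groups were kept in osteogenic induction medium for 7 days. The control group received the medium alone, the thrombin group received it with 20 U/mL thrombin, and the PD03 group received 20 U/mL thrombin together with PD0325901, an inhibitor of the kinase MEK. PD0325901 was used at 0.1 μM, although the protocol in the labels prints 0.1 mM. Each group had 3 libraries, and the samples behind them are described as independent. No group received PD0325901 without thrombin, so PD03 against control compares the pair of agents with neither.

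Matrix metalloproteinases are zinc enzymes made as inactive precursors, and together they cut collagens, gelatins, proteoglycans and many cell surface proteins. The 4 Timp proteins bind their active sites, and Timp3 also inhibits several ADAMTS enzymes. In bone, osteoblast-lineage cells use Mmp13, Mmp14 and Mmp2 to turn over the collagen they lay down, and ADAMTS enzymes trim procollagen ends and cut large proteoglycans such as versican and aggrecan. Transcription of several Mmp genes responds to the ERK pathway through AP-1 and Ets factors, and thrombin can engage that pathway through protease-activated receptors.

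The 9 libraries held 15447832 to 19841468 counts assigned to genes. A gene with 3 counts over the 3 libraries of a group, the limit that a count of 0 allows, stood at 0.0574 to 0.0599 CPM. CPM here is the count of a gene per 1000000 counts of the library, with library sizes scaled by TMM, a method that sets the bulk of the genes equal between libraries. Replicate libraries differed by more than sampling noise, with a chi-square per degree of freedom of 1.82 to 4.00 over genes. The coefficient of variation between replicates beyond counting noise was 4.28% over all genes. Each library was counted as its own sample because the samples are described as independent. The spread itself cannot tell separate cultures from repeat libraries of the same culture. Of 14 MEK-ERK output genes, such as the phosphatase gene Dusp6, 11 were lower in PD03 than in thrombin and 0 were higher, beside 6.31% and 9.61% of all tested genes. The osteoblast transcription factor gene Runx2 and the collagen gene Col1a1 were present, but the late osteoblast markers Bglap, Ibsp and Dmp1 were under 1 CPM in every library. Of 10 myeloid cell markers, 8 were under 1 CPM in every library, among them Ptprc and Cd68, as were the 5 of 7 neutrophil markers in the table. In bulk RNA such as this, fewer cells of a type and less RNA per cell cannot be told apart.

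Each gene was tested in edgeR in 3 comparisons, and was called where its Benjamini-Hochberg adjusted p, taken over 13256 genes, was under 0.05 and its log2 fold change exceeded 0.58 in size. The thrombin libraries enter both comparisons with thrombin and the control libraries both with control, so the comparisons are not independent and their values are given side by side. With thrombin, 11 of the 40 tested genes were called against control, 3 higher and 8 lower, where 8.06% of all tested genes were called (2.62% higher and 5.44% lower). Mmp9, Mmp3 and Adamts8 were the 3 called higher, with Mmp3 just past the threshold. With PD03, 20 of 40 were called against thrombin, 13 higher and 7 lower, beside 15.9% of all tested genes (9.61% higher and 6.31% lower). PD03 against control called 12 of 40, 7 higher and 5 lower, beside 8.97% of all tested genes (4.90% higher and 4.07% lower). At an adjusted p under 0.05 with no fold threshold, 29, 28 and 27 of the 40 passed in these comparisons, beside 28.7%, 49.8% and 39.9% of all tested genes. The median log2 fold change of the 40 genes was -0.10, 0.39 and 0.19 in the 3 comparisons in this order, beside -0.01, 0.01 and -0.00 over all tested genes. By family, thrombin raised 2 and lowered 3 of 15 tested Mmp genes, lowered 2 of 4 Timp genes, and raised 1 and lowered 3 of 16 tested Adamts genes. PD03 against thrombin raised 3 and lowered 4 Mmp genes, raised 3 and lowered 1 Timp gene, raised 6 and lowered 2 Adamts genes, and raised 1 of 5 Adamtsl genes. The libraries of the 2 groups compared did not overlap for 28 of the 40 genes in every comparison, where the background was 40.3% with thrombin, 55.5% for PD03 against thrombin and 47.8% for PD03 against control. Without TMM scaling, the median gene shifted to -0.12 in PD03 against control, and the 13 higher and 7 lower calls of PD03 against thrombin became 12 and 10.

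**Figure D1:**
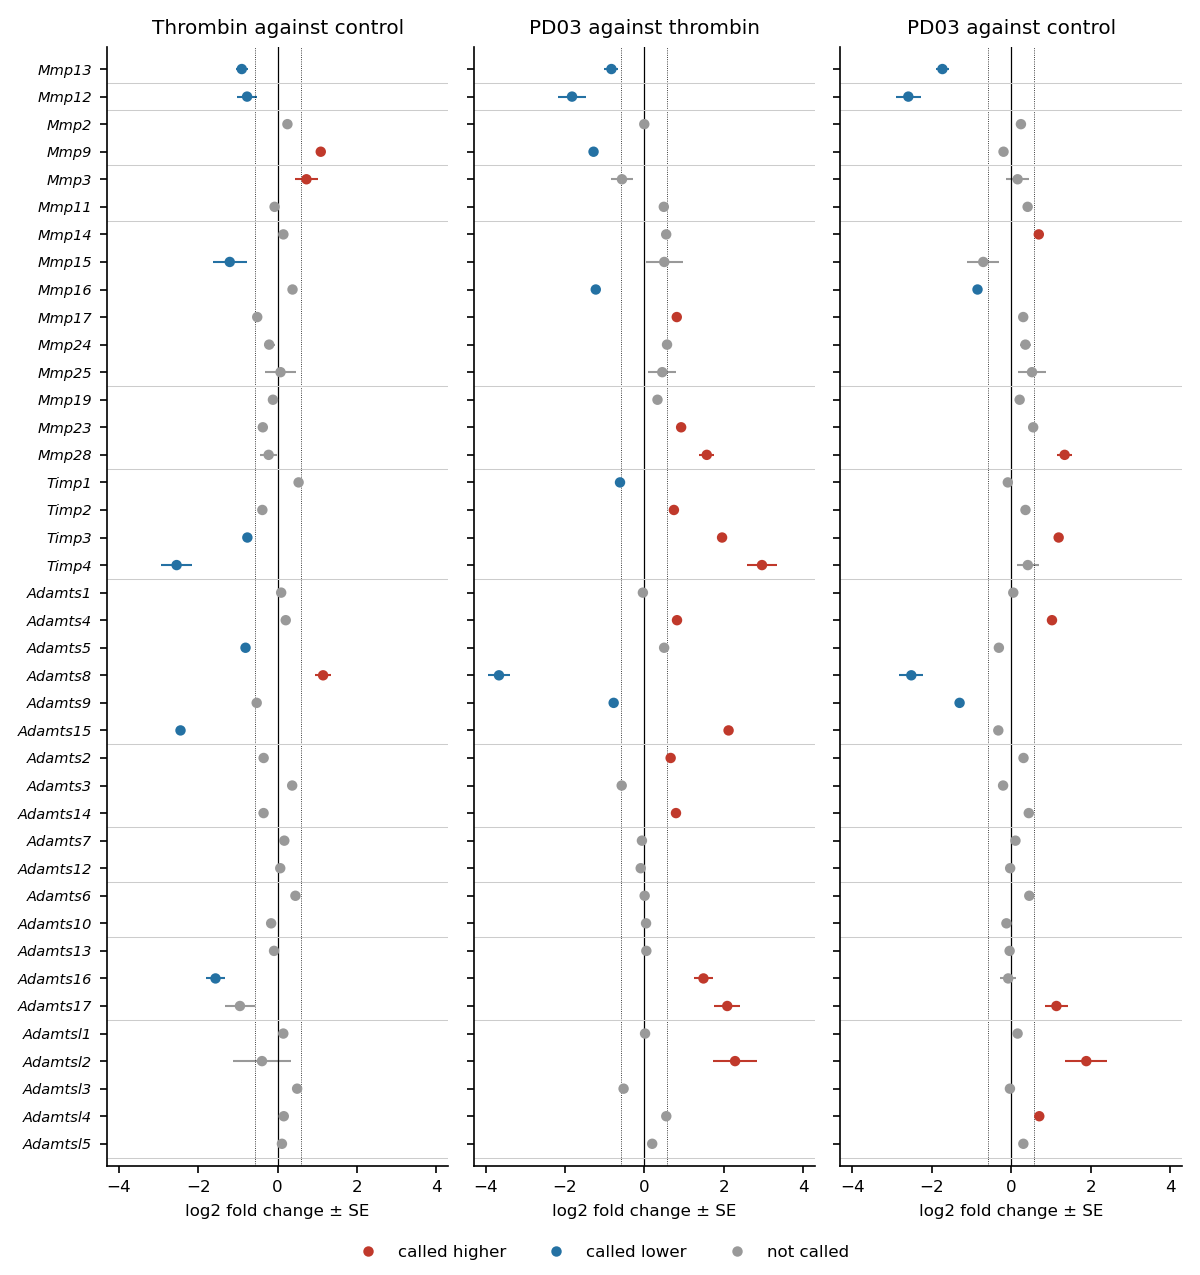
Log2 fold change of the 40 tested genes in the 3 comparisons, with bars for the standard error, dotted lines at the 0.58 threshold, and red, blue and grey points for genes called higher, called lower and not called. The left panel (thrombin against control) holds 3 red and 8 blue points, the middle (PD03 against thrombin) 13 red and 7 blue, and the right (PD03 against control) 7 red and 5 blue.

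Levels of different genes were compared by FPKM, in which the counts of a gene are divided by its length and by the library total. Values after ± are standard deviations over 3 libraries for levels and standard errors (SE) for log2 fold changes. A few genes held most of the signal. Mmp2, a gelatinase, stood at 914 ± 14.4 FPKM in control, 1072 ± 27.4 FPKM in thrombin and 998 ± 40.0 FPKM in PD03, and made up 71.6%, 74.8% and 67.3% of the summed Mmp FPKM. Timp1 followed at 339.7 ± 14.0, 484 ± 15.3 and 295 ± 1.87 FPKM. Mmp14, the membrane type that activates the Mmp2 precursor, stood at 201 ± 3.08, 219 ± 4.54 and 299.6 ± 11.0 FPKM. These 3 were the genes at or above 100 FPKM in each group, and in PD03 the levels of Mmp14 and Timp1 differed by less than their spread. Mmp23, Mmp19, Adamts1 and Timp2 came next in control, from 69.9 down to 56.8 FPKM, and the last 2 of these lay within their spread of each other (58.3 ± 2.61 and 56.8 ± 0.799 FPKM). At the other end, 13 genes in control and 14 in each treated group lay under 1 FPKM, among them Timp4, Mmp15, Mmp25, Adamts17 and Adamtsl2. Mmp9 stood at 4.87 FPKM in control and 10.2 FPKM in thrombin, which was 0.38% and 0.71% of the summed Mmp FPKM.

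**Figure D2:**
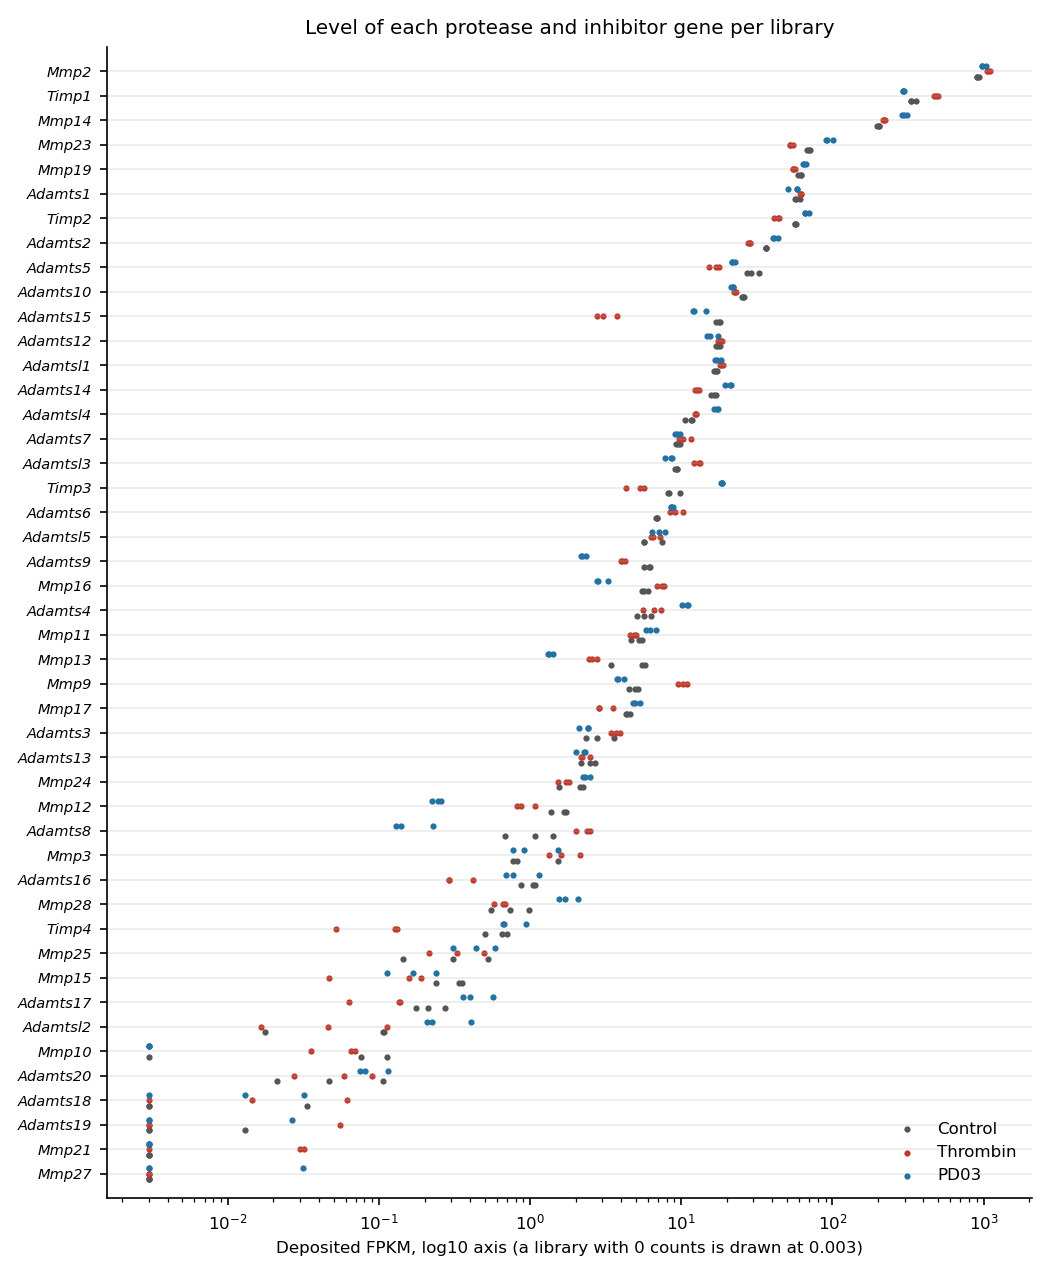
Deposited FPKM of all 46 genes in each of the 9 libraries on a log10 axis, ordered by mean level, with grey points for control, red for thrombin and blue for PD03, and libraries with 0 counts drawn at 0.003. Mmp2 (902 to 1102 FPKM) tops the list, and Adamts15, Timp4 and Adamts8 show 1 group standing apart from the others.

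The gelatinases, which cut denatured collagen and basement membrane collagen, differed from each other. Mmp9 (ENSRNOG00000017539) rose with thrombin and lay near control with PD03, while Mmp2 stayed under the fold threshold throughout. Mmp9 read 14.5, 13.6 and 15.6 CPM in the 3 control libraries, 28.5, 31.0 and 33.2 in thrombin and 13.6, 12.1 and 12.4 in PD03. All 3 thrombin libraries lay above all 6 others, and the control and PD03 libraries overlapped. Mmp9 was 2.12-fold higher in thrombin than in control (log2 fold change 1.09, SE 0.09, adjusted p = 1.6e-13) and 2.43-fold lower in PD03 than in thrombin (log2 fold change -1.28, SE 0.09, adjusted p = 8.0e-16). PD03 against control was not called (log2 fold change -0.19, SE 0.10, adjusted p = 0.12). Mmp2 (ENSRNOG00000016695) read 2759, 2785 and 2871 CPM in control, 3417, 3254 and 3318 in thrombin and 3474, 3234 and 3258 in PD03. Every control library lay below the other 6, by an amount under the fold threshold (log2 fold change 0.25, SE 0.03, adjusted p = 1.3e-08 with thrombin, and a log2 fold change of 0.24 with PD03). Mmp2 in PD03 and thrombin overlapped (log2 fold change -0.00, SE 0.03, adjusted p = 0.94). The summed level of the 10 myeloid markers, cells that are a rich source of Mmp9, was 21.6 to 24.4 CPM in control, 29.2 to 33.5 CPM in thrombin and 18.3 to 20.1 CPM in PD03. Most of that sum was Cd14 (20.4 ± 1.78, 29.3 ± 1.74 and 15.7 ± 0.437 CPM), which gave 0.52 ± 0.08 (adjusted p = 2.2e-06) with thrombin, not called, and -0.91 ± 0.09 (adjusted p = 4.6e-12) for PD03 against thrombin, called. The other 2 tested, Csf1r and Fcgr2b, gave 0.76 and -1.28 with thrombin and 0.71 and 0.81 for PD03 against thrombin, none called. For PD03 against control, 1 of the 3 tested was called, Csf1r, which was higher in PD03 (log2 fold change 1.47). The part of the myeloid markers in the Mmp9 values was not tested. The defining markers Ptprc, Cd68 and Itgam were under 1 CPM in every library, as were 4 of 7 osteoclast markers (Dcstamp, Ocstamp, Oscar and Atp6v0d2). Of the other 3, Nfatc1 rose with thrombin (0.69 ± 0.08, adjusted p = 1.5e-09), while Acp5 (-0.01) and Ctsk (-0.44) were not called, and the summed list stood at 155 to 167 CPM in control, 137 to 151 CPM in thrombin and 199 to 209.6 CPM in PD03.

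The collagenase Mmp13, the metalloelastase Mmp12 and the stromelysins Mmp3 and Mmp10 are neighbours on rat chromosome 8 in the RefSeq annotation of the GRCr8 assembly, with no coding gene outside the Mmp family between them. RefSeq promoters, which run from 250 bases before to 50 bases after each gene's start, were found for 35 of the 46 genes, and all 4 of these neighbours, and no other gene of the 35, held the AP-1 motif TGANTCA. The 35 genes had 45 promoters, of which 4 (8.89%) held the motif, beside 7.34% of 33365 rat promoters. By gene, 4 of the 35 (11.4%) held it. Identical sequences were counted once among the rat promoters but not among the 45. Since the motif reads the same on both strands, either strand was covered. The 4 sequences are shown because they are the promoters with that motif among these genes. They are not the whole neighbourhood: the promoter of Mmp27, further along it, did not hold the motif. Mmp1, Mmp1b, Mmp7, Mmp8 and Mmp20, which lie in the same run, were not examined. Each runs from 110 bases before the start to the 10th base after it on the plus strand of GRCr8, with the AP-1 motif in capitals. The motif begins 66 bases before the start in Mmp13 (chr8:12782719-12782838), 87 in Mmp12 (chr8:12866542-12866661), 71 in Mmp3 (chr8:12925171-12925290) and 61 in Mmp10 (chr8:12974597-12974716).
Mmp13: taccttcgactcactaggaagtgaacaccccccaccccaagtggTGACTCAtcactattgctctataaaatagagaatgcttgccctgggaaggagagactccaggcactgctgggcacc
Mmp12: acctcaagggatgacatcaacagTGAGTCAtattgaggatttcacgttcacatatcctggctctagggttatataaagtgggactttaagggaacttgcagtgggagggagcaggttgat
Mmp3: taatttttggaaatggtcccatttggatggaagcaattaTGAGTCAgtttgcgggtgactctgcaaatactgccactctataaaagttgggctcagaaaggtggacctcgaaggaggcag
Mmp10: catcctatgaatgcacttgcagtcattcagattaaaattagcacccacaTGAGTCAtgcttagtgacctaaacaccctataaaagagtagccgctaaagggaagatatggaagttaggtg

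All 4 promoters also held the letters TATAAA, which were found in 10 of the 45 promoters (22.2%) and in 14.2% of all promoters. The Ets motif CAGGAAG was found in 11 of the 45 (24.4%, against 12.5% of all). Of these, 6 were promoters of Adamts13 and 1 each of Adamts10, Adamts12, Mmp3, Timp1 and Timp4, so that 6 of the 35 genes (17.1%) held it. The Sp1 motif GGGCGG was found in 22 of the 45 (48.9%, against 33.1%). These motifs too were searched on both strands. These matches are descriptions of the letters, and binding was not measured. The promoters of Mmp2, Mmp9, Mmp14, Mmp16, Mmp17, Mmp19, Adamts5, Adamts8, Adamts15, Adamts16 and Adamts19 were not analysed here.

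The neighbours did not move as one. Mmp13 (ENSRNOG00000008478), the collagenase of osteoblasts and cartilage cells, fell with thrombin and fell further with PD03. It read 14.4, 8.65 and 14.0 CPM in control, 7.07, 6.25 and 6.52 in thrombin and 3.60, 3.88 and 3.67 in PD03. The 3 groups formed 3 steps without overlap, and control was the most spread of them, with its second library low. The log2 fold changes were -0.90 ± 0.15 (adjusted p = 4.2e-06) for thrombin against control, -0.83 ± 0.17 (adjusted p = 9.8e-05) for PD03 against thrombin and -1.73 ± 0.16 (adjusted p = 6.7e-12) for PD03 against control, the last a 3.32-fold decrease. Mmp12 (ENSRNOG00000030187), which cuts elastin, was lower in level and followed the same steps. It read 3.26, 3.41 and 2.71 CPM in control, 1.72, 2.14 and 1.63 in thrombin and 0.476, 0.518 and 0.551 in PD03, where the counts were 9, 8 and 9. Again no libraries overlapped between groups. Mmp12 was 3.54-fold lower in PD03 than in thrombin (log2 fold change -1.82, SE 0.34, adjusted p = 1.9e-05) and 6.03-fold lower than in control (log2 fold change -2.59, SE 0.32, adjusted p = 7.8e-09). The smaller fall with thrombin (log2 fold change -0.77, SE 0.25, adjusted p = 0.019) was lost without control 1, control 2, thrombin 1 or thrombin 3, where the adjusted p was 0.058, 0.074, 0.0537 and 0.072.

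Mmp3 (ENSRNOG00000032626), stromelysin 1, went the other way with thrombin. It read 1.36, 1.45 and 2.71 CPM in control, 2.38, 2.85 and 3.84 in thrombin and 1.48, 1.75 and 2.94 in PD03. In each group the third library was the highest, and all 3 groups overlapped. The rise with thrombin was just past the threshold (log2 fold change 0.73, SE 0.28, adjusted p = 0.0461), and without control 1, control 2, thrombin 2 or thrombin 3 the adjusted p was 0.22, 0.17, 0.068 and 0.26. The call was lost in 10 of 20 alternative settings, among them DESeq2 (adjusted p = 0.084) and edgeR by library totals (adjusted p = 0.053). The difference between PD03 and thrombin missed the threshold (log2 fold change -0.57, SE 0.27, adjusted p = 0.083) but passed it without thrombin 1 or PD03 3 (adjusted p = 0.04 and 0.015). Mmp10, stromelysin 2, had 0, 3 and 2 counts in control, 1, 2 and 2 in thrombin and 0, 0 and 0 in PD03, too few to test. Mmp27, further along the same neighbourhood, had 1 count in all 9 libraries. Mmp11, stromelysin 3, lies elsewhere and was not called in any comparison, with 11.7 ± 0.943, 11.1 ± 0.47 and 15.6 ± 1.23 CPM in control, thrombin and PD03. Its PD03 libraries lay above all others, by less than the fold threshold (log2 fold change 0.49, SE 0.11, adjusted p = 1.4e-04 against thrombin).

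The 6 membrane-type enzymes, which are held on the cell surface, were split in direction. With PD03 against thrombin, Mmp17 rose, Mmp16 fell, and the other 4 were not called. Mmp14 (ENSRNOG00000010947), by far the most abundant, read 518, 538 and 542 CPM in control, 588, 577 and 603 in thrombin and 857, 830.1 and 897 in PD03. Its PD03 libraries lay above all 6 others and the groups did not overlap. Mmp14 was 1.62-fold higher in PD03 than in control (log2 fold change 0.69, SE 0.03, adjusted p = 2.0e-20), and its difference from thrombin stood just under the fold threshold (log2 fold change 0.55, SE 0.03, adjusted p = 2.2e-17). Scaled by library totals alone, the value against control was 0.578 and no longer called.

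Mmp16 (ENSRNOG00000005708) read 20.3, 18.9 and 19.6 CPM in control, 23.8, 26.6 and 25.9 in thrombin and 10.2, 10.4 and 12.1 in PD03. The PD03 libraries lay below all others. Mmp16 was 2.34-fold lower in PD03 than in thrombin (log2 fold change -1.22, SE 0.09, adjusted p = 1.1e-14) and 1.80-fold lower than in control (log2 fold change -0.85, SE 0.10, adjusted p = 1.2e-09), so that Mmp14 and Mmp16, both able to cleave collagen at the cell surface, were called in opposite directions against control. Mmp17 (ENSRNOG00000023643), which is anchored by a lipid, read 14.8, 14.8 and 15.6 CPM in control, 9.81, 9.76 and 12.1 in thrombin and 19.7, 18.2 and 17.7 in PD03. The 3 groups did not overlap, with thrombin lowest and PD03 highest. The rise from thrombin to PD03 was 1.76-fold (log2 fold change 0.81, SE 0.10, adjusted p = 8.0e-09), and thrombin against control stayed under the fold threshold (log2 fold change -0.51, SE 0.11, adjusted p = 1.7e-04) unless thrombin 3 was left out (-0.62, called).

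Mmp15 (ENSRNOG00000012622) had 24, 14 and 20 counts in control, 10, 13 and 3 in thrombin and 18, 7 and 11 in PD03. The thrombin libraries lay below the control libraries, with thrombin 3 the lowest of the 9. The fall with thrombin (log2 fold change -1.20, SE 0.43, adjusted p = 0.032) was lost in DESeq2 (adjusted p = 0.069) and without control 1, control 3 or thrombin 3 (edgeR adjusted p = 0.11, 0.092 and 0.21). Mmp24 and Mmp25 were not called in any comparison, at mean levels of 7.08 to 10.5 CPM and 1.12 to 1.67 CPM. For Mmp25, whose log2 fold changes were 0.07 ± 0.38, adjusted p = 0.91 with thrombin and 0.45 ± 0.36, adjusted p = 0.31 for PD03 against thrombin, a difference was not detectable at this depth.

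Of the remaining Mmp genes, Mmp23 and Mmp28 rose with PD03 against thrombin. Mmp23 (ENSRNOG00000017477), an enzyme anchored by its N-terminal part, read 94.9, 93.3 and 97.1 CPM in control, 72.5, 75.3 and 72.6 in thrombin and 149, 134 and 135 in PD03. The groups did not overlap, with thrombin lowest and PD03 highest. PD03 was 1.90-fold above thrombin (log2 fold change 0.92, SE 0.05, adjusted p = 5.0e-20), while thrombin against control (-0.37) and PD03 against control (0.55) stayed under the fold threshold. Mmp28 (ENSRNOG00000047940), epilysin, read 3.04, 4.16 and 2.34 CPM in control, 2.44, 2.90 and 2.80 in thrombin and 9.37, 7.06 and 7.71 in PD03. All 3 PD03 libraries stood above the other 6, and control and thrombin overlapped. It was 2.97-fold higher in PD03 than in thrombin (log2 fold change 1.57, SE 0.19, adjusted p = 2.1e-09) and 2.54-fold higher than in control (log2 fold change 1.34, SE 0.18, adjusted p = 8.0e-08). Mmp19 was abundant (61.0 ± 1.31 FPKM in control) and not called in any comparison, with log2 fold changes of -0.12, 0.33 and 0.21. Mmp21 had 2 counts in all, both in thrombin libraries.

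The Timp genes were the family in which every member was called for PD03 against thrombin (4 of 4, beside 15.9% of all tested genes), and they did not share a direction. Timp1 fell, while Timp2, Timp3 and Timp4 rose. Timp1 (ENSRNOG00000010208), a secreted inhibitor that binds Mmp9 and its precursor, read 279, 281 and 303 CPM in control, 399.7, 426 and 419 in thrombin and 273, 269 and 271 in PD03. Thrombin libraries were the highest without overlap, and PD03 libraries lay just below control. Timp1 fell by 0.61 on the log2 scale in PD03 against thrombin (SE 0.04, adjusted p = 1.1e-17), and its value for thrombin against control, 0.53 ± 0.04 (adjusted p = 2.9e-15), stood under the fold threshold. In glmTreat, which tests against the 0.58 threshold itself, the fall of Timp1 with PD03 was no longer called (adjusted p = 0.53). With a log2 fold change above 1 required, neither Timp1 nor Timp2 was called. Timp2 (ENSRNOG00000033143), which also takes part in the activation of the Mmp2 precursor by Mmp14, read 721, 713 and 718 CPM in control, 562, 558 and 529 in thrombin and 959, 898 and 902 in PD03. Its order was the opposite, with thrombin lowest and PD03 highest and no overlap. The log2 fold changes were -0.38 ± 0.03 (adjusted p = 2.3e-12) for thrombin against control, not called, and 0.74 ± 0.03 (adjusted p = 6.5e-22) for PD03 against thrombin, called.

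Timp3 (ENSRNOG00000004303), the inhibitor that stays bound to the matrix, read 13.8, 14.1 and 16.7 CPM in control, 9.09, 7.40 and 9.79 in thrombin and 33.4, 34.2 and 34.3 in PD03. The 3 groups did not overlap, and the PD03 libraries stood at least 33.4 CPM. Timp3 was 1.70-fold lower with thrombin (log2 fold change -0.76, SE 0.11, adjusted p = 2.8e-07), then 3.88-fold higher with PD03 than with thrombin (log2 fold change 1.96, SE 0.10, adjusted p = 1.4e-20) and 2.29-fold higher than control (log2 fold change 1.19, SE 0.09, adjusted p = 2.3e-14). In glmTreat the fall of Timp3 with thrombin was no longer called (adjusted p = 0.30). Timp4 (ENSRNOG00000007955), the least abundant inhibitor, had 37, 35 and 25 counts in control, 7, 3 and 7 in thrombin and 60, 35 and 37 in PD03. Thrombin libraries lay far below both other groups. It was 5.83-fold lower with thrombin (log2 fold change -2.54, SE 0.39, adjusted p = 1.4e-06) and 7.78-fold higher with PD03 than with thrombin (log2 fold change 2.96, SE 0.37, adjusted p = 8.2e-09), and PD03 against control missed the threshold (log2 fold change 0.42, SE 0.27, adjusted p = 0.24). As a share of summed Timp FPKM, Timp1 held 83.7% in control, 90.9% in thrombin and 77.4% in PD03, and Timp3 held 2.16%, 0.96% and 4.84%. These shares rest on the gene lengths in the FPKM, 873 bases for Timp1 and 13014 bases for Timp2.

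Among the ADAMTS enzymes that cut proteoglycans such as aggrecan and versican, Adamts15 and Adamts8, which lie next to each other on chromosome 8 in the RefSeq annotation, moved in opposite directions. Adamts15 (ENSRNOG00000009892) fell with thrombin and rose with PD03. It read 98.8, 105 and 106 CPM in control, 22.4, 17.9 and 16.5 in thrombin and 92.8, 75.5 and 77.9 in PD03. The thrombin libraries stood far below all others, and the PD03 libraries just below control. It was 5.44-fold lower in thrombin than in control (log2 fold change -2.44, SE 0.08, adjusted p = 2.4e-27) and 4.34-fold higher in PD03 than in thrombin (log2 fold change 2.12, SE 0.08, adjusted p = 2.3e-25). PD03 against control stayed under the fold threshold (log2 fold change -0.33, SE 0.06, adjusted p = 6.4e-05). Its share of summed Adamts FPKM was 7.40%, 1.57% and 5.66% in control, thrombin and PD03.

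Adamts8 (ENSRNOG00000005574) rose with thrombin and fell with PD03 to below control. It read 3.42, 2.21 and 4.61 CPM in control, 8.20, 7.84 and 6.64 in thrombin and 0.794, 0.453 and 0.489 in PD03, where the counts were 15, 7 and 8. No groups overlapped. It was 2.21-fold higher with thrombin (log2 fold change 1.15, SE 0.20, adjusted p = 1.1e-05), 12.7-fold lower with PD03 than with thrombin (log2 fold change -3.66, SE 0.27, adjusted p = 3.2e-15) and 5.72-fold lower than control (log2 fold change -2.52, SE 0.30, adjusted p = 4.3e-09). In PD03 against thrombin this was the largest fall among the 40 tested genes.

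Adamts9 (ENSRNOG00000023257), a versican-cleaving enzyme, stepped down across the groups. It read 43.9, 43.9 and 40.7 CPM in control, 29.1, 29.1 and 31.0 in thrombin and 17.2, 16.8 and 18.1 in PD03, without overlap. The fall with PD03 was -0.77 ± 0.08 (adjusted p = 1.7e-11) against thrombin and -1.30 ± 0.07 (adjusted p = 1.5e-18) against control on the log2 scale, and thrombin against control was under the fold threshold (-0.53 ± 0.07, adjusted p = 4.4e-08). Adamts5 (ENSRNOG00000057794), a main aggrecanase of cartilage, fell with thrombin. It read 121, 108 and 102 CPM in control, 67.2, 63.9 and 58.1 in thrombin and 87.9, 87.4 and 91.6 in PD03. The groups did not overlap, with PD03 in between. The log2 fold changes were -0.81 ± 0.06 (adjusted p = 2.1e-15) for thrombin against control, called, and 0.50 ± 0.06 (adjusted p = 1.2e-09) for PD03 against thrombin, not called. Adamts4 (ENSRNOG00000003538), the other main aggrecanase, read 22.7, 20.6 and 18.4 CPM in control, 26.7, 20.4 and 24.3 in thrombin and 43.4, 42.5 and 40.0 in PD03. PD03 libraries lay above the other 6, and control and thrombin overlapped. Adamts4 was 1.77-fold higher in PD03 than in thrombin (log2 fold change 0.82, SE 0.08, adjusted p = 2.0e-11) and 2.04-fold higher than in control (log2 fold change 1.03, SE 0.08, adjusted p = 1.4e-13). Adamts1, the most abundant Adamts gene and the neighbour of Adamts5 on chromosome 11, was not called in any comparison, at 275 ± 9.78, 293 ± 2.40 and 286 ± 21.8 CPM. Adamts20 had too few counts to test, with mean levels of 0.343 to 0.576 CPM.

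**Figure D3:**
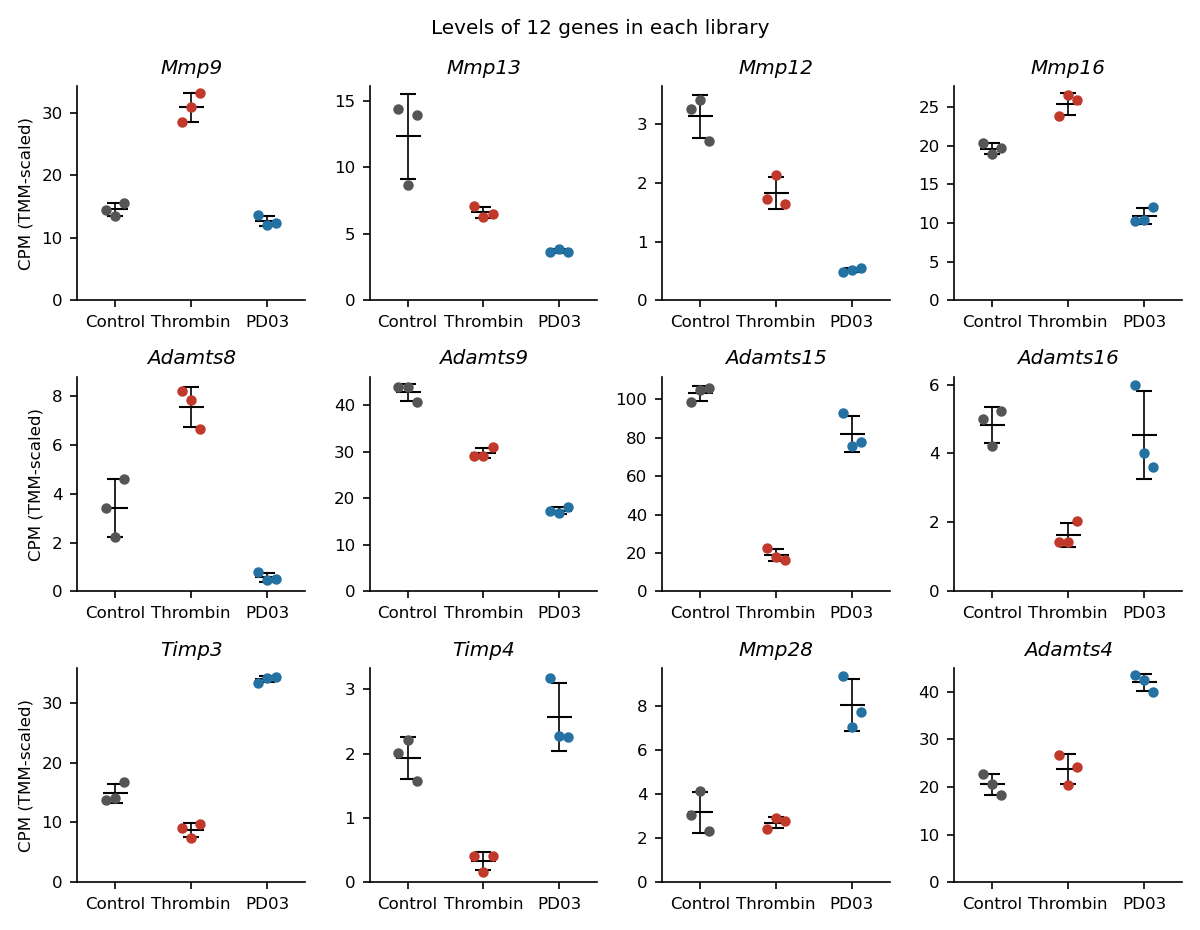
CPM after TMM scaling of 12 of the called genes in each library, with grey, red and blue points for control, thrombin and PD03 and bars for the mean ± SD of 3 libraries. The thrombin points are the highest for Mmp9, Mmp16 and Adamts8 and the lowest for Adamts15, Adamts16, Timp3 and Timp4. Mmp13, Mmp12 and Adamts9 step down from control to PD03, and Mmp28 and Adamts4 are highest in PD03.

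Of the 3 procollagen N-proteinases, which remove the amino-terminal extension of fibrillar procollagens, Adamts2 and Adamts14 rose with PD03 against thrombin and Adamts3 did not pass. Adamts2 (ENSRNOG00000061484) read 137, 138 and 139.6 CPM in control, 109.7, 106 and 110.4 in thrombin and 179, 166 and 170.0 in PD03. Adamts14 (ENSRNOG00000000563) read 58.1, 61.4 and 63.6 CPM in control, 49.4, 46.2 and 47.7 in thrombin and 85.6, 78.6 and 84.1 in PD03. Both had the 3 groups apart, with thrombin lowest and PD03 highest. For PD03 against thrombin, the log2 fold changes were 0.66 ± 0.04 (adjusted p = 7.2e-17) and 0.79 ± 0.06 (adjusted p = 8.0e-16), and Adamts2 was no longer called when scaled by library totals alone (0.56). Thrombin against control gave -0.35 and -0.35, neither called. Adamts3 pointed the other way in each comparison with thrombin, with 0.37 ± 0.12 (adjusted p = 0.013) for thrombin against control and -0.57 ± 0.12 (adjusted p = 7.3e-05) for PD03 against thrombin, both under the fold threshold. Bmp1, which removes the other end of the same procollagens, was called for PD03 against thrombin (log2 fold change 0.70, SE 0.04, adjusted p = 1.3e-18).

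Adamts16 and Adamts17 are low-abundance enzymes with fewer known substrates. Adamts16 (ENSRNOG00000016812) had 92, 67 and 83 counts in control, 24, 26 and 35 in thrombin and 113, 62 and 59 in PD03. Thrombin libraries lay below all others, and control and PD03 overlapped. It was 2.96-fold lower with thrombin (log2 fold change -1.56, SE 0.23, adjusted p = 5.6e-07) and 2.80-fold higher with PD03 than with thrombin (log2 fold change 1.49, SE 0.23, adjusted p = 6.6e-07). Adamts17 (ENSRNOG00000037080) had 19, 20 and 26 counts in control, 14, 7 and 14 in thrombin and 69, 36 and 42 in PD03. The PD03 libraries were the highest and the thrombin libraries the lowest, without overlap. The rise with PD03 was 4.24-fold against thrombin (log2 fold change 2.09, SE 0.33, adjusted p = 9.0e-07), and it was also called against control (log2 fold change 1.14, SE 0.30, adjusted p = 0.0017), while thrombin against control was at the edge of the threshold and not called (log2 fold change -0.95, SE 0.37, adjusted p = 0.0505). That difference was called without control 1 or thrombin 1, with the replicate block, by library totals and with no filter on low counts (adjusted p = 0.039, 0.0478, 0.0487, 0.0466 and 0.0463). Adamts6, Adamts7, Adamts10, Adamts12 and Adamts13 were not called in any comparison. Among these, Adamts6 differed most, with log2 fold changes of 0.45, 0.01 and 0.45 in the 3 comparisons. Adamts18 and Adamts19 had at most 4 counts in any library.

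The ADAMTS-like proteins lack a protease domain and bind microfibrils and other matrix parts. Adamtsl2 (ENSRNOG00000027742) had 7, 6 and 1 counts in control, 1, 3 and 7 in thrombin and 15, 24 and 14 in PD03. PD03 libraries were above all others, and control and thrombin overlapped. Adamtsl2 rose with PD03 by 2.28 ± 0.56 (adjusted p = 6.3e-04) against thrombin and 1.89 ± 0.53 (adjusted p = 0.0036) against control on the log2 scale. Adamtsl4 (ENSRNOG00000049385), much more abundant, read 46.9, 42.8 and 46.8 CPM in control, 50.9, 51.2 and 50.0 in thrombin and 76.0, 75.2 and 71.5 in PD03, with PD03 above all others. It was called against control (log2 fold change 0.71, SE 0.06, adjusted p = 8.6e-14) and stood just under the fold threshold against thrombin (log2 fold change 0.55, SE 0.06, adjusted p = 3.3e-11). Adamtsl1, Adamtsl3 and Adamtsl5 were not called in any comparison. Of these, Adamtsl3 had its thrombin libraries above all others, with 0.49 ± 0.05 (adjusted p = 5.1e-10) for thrombin against control and -0.52 ± 0.05 (adjusted p = 3.8e-11) for PD03 against thrombin.

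Summed levels describe each class of transcript relative to the rest of the library, not the amount held per cell. The Mmp genes summed to 1276 ± 16.4 FPKM in control, 1434 ± 28.3 FPKM in thrombin and 1483 ± 47.8 FPKM in PD03. The Timp genes summed to 406 ± 14.7, 533 ± 14.5 and 382 ± 4.26 FPKM, and the Adamts genes to 237 ± 5.49, 202 ± 3.68 and 228 ± 2.35 FPKM. The ratio of summed Timp to summed Mmp FPKM was 0.314, 0.313 and 0.327 in the control libraries, 0.353, 0.388 and 0.374 in thrombin, and 0.252, 0.263 and 0.258 in PD03. The 3 groups did not overlap in this ratio, with thrombin highest and PD03 lowest. An exact two-sided permutation test of 3 libraries against 3 cannot go below p = 0.1, and none was run on this ratio. The Timp ordering depends on the scale, since FPKM divides by gene length. The lengths implied by the deposited values were 873 bases for Timp1 and 13014 bases for Timp2. Summed CPM, without that division, were 1022 ± 15.5 in control, 974 ± 17.0 in thrombin and 1227 ± 35.7 in PD03. By that scale thrombin was lowest and PD03 highest, and the ratio of summed Timp to summed Mmp CPM was 0.276 to 0.281 in control, 0.225 to 0.239 in thrombin and 0.266 to 0.271 in PD03. The same orders held in CPM by library totals without TMM scaling, where the Timp sums were 1054 ± 15.2, 992 ± 18.6 and 1168 ± 34.2. The Adamts sum in PD03 was below control in FPKM and in CPM by library totals (1109 ± 15.7 against 1177 ± 25.5), and above it in CPM after TMM scaling (1165 ± 19.6 against 1142 ± 15.6). A sum over transcripts says nothing of protein or of enzyme activity.

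**Figure D4:**
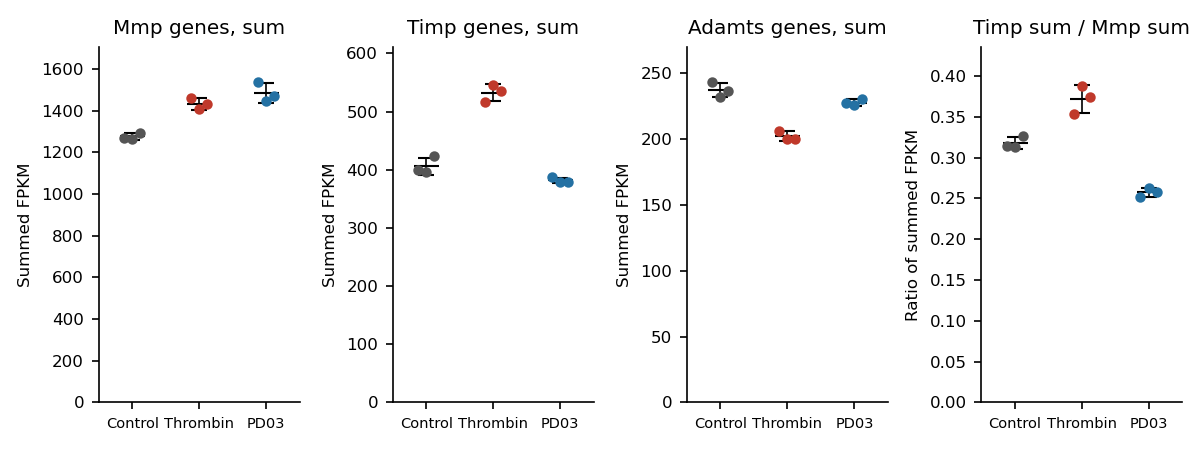
Summed FPKM of the Mmp, Timp and Adamts genes and the ratio of the Timp to the Mmp sum in each library, on axes that start at 0, with bars for the mean ± SD of 3 libraries. The Timp sum and the ratio are highest in the 3 thrombin libraries and lowest in PD03, an order that does not hold in summed CPM, where thrombin is lowest in both.

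Genes around these enzymes were read from lists chosen with earlier results of these data known. The shares called in these lists are set beside all tested genes as a description, not a test. Of 19 tested genes for the activation and surface control of Mmp proteins, 2 were higher and 2 lower with thrombin, 2 higher and 3 lower for PD03 against thrombin, and 1 higher and 0 lower for PD03 against control. The shares called were 21.1%, 26.3% and 5.26%, beside 8.06%, 15.9% and 8.97% of all tested genes. In the same order, the list had medians of 0.22, 0.07 and 0.21 on the log2 scale. The urokinase gene Plau was not called with thrombin (0.51 ± 0.12, adjusted p = 7.0e-04 on the log2 scale) and fell with PD03 against thrombin (-1.04 ± 0.12, adjusted p = 2.4e-09). Its receptor gene Plaur rose with thrombin (0.95 ± 0.08, adjusted p = 9.8e-13). A2m, a broad protease inhibitor, fell with thrombin (-1.05 ± 0.09, adjusted p = 1.5e-12) and rose with PD03 against thrombin (1.46 ± 0.09, adjusted p = 1.1e-17). Spock2, a matrix proteoglycan gene, was the 1 gene called against control (1.18 ± 0.41, adjusted p = 0.019). Furin, which cuts the precursors of membrane-type enzymes, gave 0.46 and -0.54 in the comparisons with thrombin, neither called. Reck, a membrane inhibitor, Bsg, an inducer of Mmp genes, and Plat, the other plasminogen activator, were not called in any comparison.

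Of 21 other matrix proteases and inhibitors, 1 was higher and 2 lower with thrombin, 6 higher and 2 lower for PD03 against thrombin, and 2 higher and 0 lower for PD03 against control, which is 14.3%, 38.1% and 9.52% of the list beside those same backgrounds, with medians of -0.04, 0.21 and 0.23. The largest changes were in Dpp4, a surface peptidase, with -3.40 ± 0.15 (adjusted p = 1.9e-22) for thrombin, 4.33 ± 0.14 (adjusted p = 8.1e-28) for PD03 against thrombin and 0.93 ± 0.09 (adjusted p = 4.3e-11) for PD03 against control. After it came Cst6, a cystatin, with thrombin (0.88 ± 0.32, adjusted p = 0.031), Adam15 with PD03 against thrombin (0.93 ± 0.06, adjusted p = 8.5e-18) and Tll1, a relative of Bmp1, with PD03 against control (0.63 ± 0.10, adjusted p = 1.5e-06). Ctsk, cathepsin K, rose with PD03 against thrombin (0.79 ± 0.05, adjusted p = 1.0e-18).

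Of 11 matrix substrates tested, 1 was higher with thrombin (the aggrecan gene Acan, 1.29 ± 0.39, adjusted p = 0.0089) and 1 lower (the elastin gene Eln, -1.14 ± 0.16, adjusted p = 1.5e-07). For PD03 against thrombin 4 were higher and 0 lower, and for PD03 against control 3 and 0. The shares called were 18.2%, 36.4% and 27.3%, beside 8.06%, 15.9% and 8.97% of all tested genes. Medians over the list were -0.15, 0.13 and 0.09 in the 3 comparisons. Comp, a cartilage matrix glycoprotein gene, changed most, by 2.16 ± 0.17 (adjusted p = 1.7e-14) against thrombin and 1.66 ± 0.16 (adjusted p = 1.4e-11) against control. Fmod, fibromodulin, followed with 1.08 ± 0.05 (adjusted p = 3.8e-22) and 1.08 ± 0.05 (adjusted p = 8.0e-22). Vcan, the versican gene, was not called in any comparison.

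In the MEK-ERK output list, 2 of 14 genes were higher with thrombin, Phlda1 (0.98 ± 0.07, adjusted p = 9.5e-16) and Dusp4 (0.94 ± 0.13, adjusted p = 2.1e-07), and 11 were lower both for PD03 against thrombin and for PD03 against control. That is 14.3%, 78.6% and 78.6% of the list, beside 8.06%, 15.9% and 8.97% of all tested genes, with medians of 0.03, -1.10 and -1.30. Egr1 fell most, with -3.70 ± 0.12 (adjusted p = 1.7e-27) against thrombin and -4.18 ± 0.12 (adjusted p = 6.3e-29) against control, and Phlda1 gave -2.70 ± 0.08 (adjusted p = 5.2e-29) against thrombin. Dusp6 was not called with thrombin (-0.40 ± 0.09, adjusted p = 8.5e-04) and fell with PD03 against thrombin (-2.40 ± 0.12, adjusted p = 4.1e-20) and against control (-2.80 ± 0.12, adjusted p = 2.0e-22). Against thrombin, so did Etv4 (-2.62 ± 0.15, adjusted p = 1.3e-18) and Spry4 (-0.61 ± 0.12, adjusted p = 2.4e-05). Of the 8 AP-1 and Ets factors, 1 was higher with thrombin (Ets2, 0.91 ± 0.06, adjusted p = 2.5e-17). For PD03 against thrombin 1 was higher and 4 lower, and for PD03 against control 1 was higher and 3 lower. That is 12.5%, 62.5% and 50.0% of the list beside those same backgrounds, with medians of 0.24, -0.42 and -0.02. Fosl1 (-1.85 ± 0.11, adjusted p = 1.2e-18) and Ets1 (-0.94 ± 0.06, adjusted p = 7.9e-17) fell most against thrombin, Fos fell by less (-0.61 ± 0.18, adjusted p = 0.004), and Jund rose (0.86 ± 0.05, adjusted p = 7.3e-20). Against control, Fosl1 (-1.43 ± 0.11, adjusted p = 2.7e-14) and Jund (0.83 ± 0.05, adjusted p = 5.7e-19) differed most.

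Of 9 osteoblast markers, 6 were tested. With thrombin, 1 was higher and 1 lower (33.3%), with log2 fold changes of the 6 from -2.24 to 1.54. For PD03 against thrombin, 2 were higher and 2 lower (66.7%), from -1.80 to 3.14. Against control, 2 were higher and 0 lower (33.3%). The backgrounds were again 8.06%, 15.9% and 8.97%. Summed osteoblast markers stood at 44387 to 49354 CPM in control, 41320.5 to 44724 CPM in thrombin and 71210 to 73183 CPM in PD03. Such a sum is weighted towards the most abundant genes. It does not stand for the whole list, whose tested markers were split in direction for PD03 against thrombin. Markers of other cells moved between the groups as well. Summed endothelial markers stood at 6.69 to 7.95 CPM in control, 6.41 to 8.56 CPM in thrombin and 11.1 to 12.8 CPM in PD03, with 3 of 5 (Pecam1, Tie1 and Esam) under 1 CPM in every library and Tek and Kdr higher in PD03 than in thrombin. Summed muscle markers, which smooth muscle and contractile stromal cells share, stood at 54.0 to 59.1, 73.8 to 79.9 and 143 to 145 CPM, with 1 of 5 (Myog) under 1 CPM throughout and most of the sum from Cnn1. Summed chondrocyte markers stood at 91.4 to 102, 69.1 to 75.2 and 79.7 to 87.4 CPM, with 1 of 6 (Col10a1) under 1 CPM throughout. Most of that sum was Col2a1, which fell with thrombin (-0.78 ± 0.06, adjusted p = 1.3e-14), while Acan, Matn3 and Sox9 (0.89 ± 0.11, adjusted p = 8.4e-09) rose, so that 3 of 5 tested were higher and 1 lower with thrombin, and 4 higher and 1 lower for PD03 against control. Their part in the protease and inhibitor values was not tested.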

How the data were processed

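RNA sequencing of 9 libraries (3 groups of 3) was analysed from the authors' gene table. Reads were aligned with HISAT2. The methods name the rat genome Rnor_6.0 and featureCounts, whereas the submitters' processing notes name mRatBN7.2 and HTSeq 0.13.5, and no source used here gives the strand setting or the annotation release. The deposited values are raw counts per gene and FPKM. The authors' FPKM equalled count divided by library total and a fixed gene length, and served to compare levels between genes. The table's fold changes and p-values by the authors were not used. Columns of per-sample values outside the 9 libraries numbered 0.

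Counts were tested in R 4.3.3 with edgeR 4.0.16 (quasi-likelihood F-test, TMM scaling, filterByExpr with a minimum count of 10, all 9 libraries in one fit, SE from the F statistic), with Benjamini-Hochberg adjustment over 13256 genes. Calls needed an adjusted p under 0.05 and a log2 fold change over 0.58. The p-values measure the spread between these libraries, and limits for 0 counts cover counting error only. Genes named in full were those called with thrombin (against control) or with PD03 (against thrombin), the 4 Timp genes, Mmp2, Mmp3, Mmp9, Mmp13 and Mmp14, with those called only against control added. From the lists around them, the genes with the 2 largest changes and a fixed set were named. The members and lists were chosen with earlier results of these data known. Alternatives used library totals, DESeq2 1.42.0, limma 3.58.1 (voom, and log2 of FPKM plus 1 or 0.1), other filters and thresholds, glmTreat, a replicate block, 2 groups only, and each library left out. The count test was checked on simulated data. Promoter sequences came from RefSeq (GRCr8). Figures used Python 3.11.15 and matplotlib 3.10.9.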

Additional observations from a re-analysis of the deposited data

How the results depend on the processing

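Of 43 called values of the named genes, 832 of 892 recomputed values kept direction and call, 60 kept direction only and 0 changed sign. This tally includes settings that could hardly alter a call. Without a fold threshold no call can be lost, and leaving out a library of the group not compared touches neither group's counts. For thrombin against control, the 11 calls became 7 with a mean count of at least 50 and with log2(FPKM + 1), 6 with a log2 fold change above 1 and with glmTreat, 29 with no fold threshold, and 9 to 11 with a library left out. For PD03 against thrombin, the 20 calls became 11 with a log2 fold change above 1 and 20 to 22 with a library left out. The split of 13 higher and 7 lower became 12 and 10 by library totals, 12 and 9 with log2(FPKM + 0.1) and 8 and 7 with log2(FPKM + 1). For PD03 against control, the 12 calls became 27 with no fold threshold and stayed at 12 with each library left out, and 7 higher and 5 lower became 3 and 5 with log2(FPKM + 1). Fewer genes entered under the stricter filter, and FPKM + 1 compresses low genes by construction. Otherwise the cause was not tested.

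The summed levels were also taken in CPM after TMM scaling and, added after seeing the data, in CPM by library totals, which differs from FPKM only in the division by gene length. With thrombin, with PD03 against thrombin and with PD03 against control, the log2 ratio of the Timp sum was 0.39, -0.48 and -0.088 by FPKM, -0.070, 0.33 and 0.26 after TMM scaling and -0.087, 0.23 and 0.15 by library totals, so its sign turned with the length division. That of the Mmp sum was 0.17, 0.049 and 0.22 by FPKM, 0.20, 0.11 and 0.32 after TMM scaling and 0.19, 0.016 and 0.20 by library totals. That of the Adamts sum was -0.23, 0.17 and -0.059 by FPKM, -0.20, 0.23 and 0.030 after TMM scaling and -0.21, 0.13 and -0.086 by library totals, so its last value turned with TMM scaling. Several uncalled genes crossed 0. Mmp2 in PD03 against thrombin was 0.00030 with a mean count of at least 50 and -0.038 to 0.016 with a library left out. With a library left out, Mmp28 with thrombin ranged from -0.39 to 0.0086, Adamtsl2 with thrombin from -1.24 to 0.024, Mmp3 in PD03 against control from -0.18 to 0.53 and Adamts16 in PD03 against control from -0.34 to 0.064.

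No pairing by replicate number was seen over all genes: same-numbered libraries correlated at -0.04 to 0.07 in their deviations from the group means, and 1 of 9 correlated best with its own number. In each group libraries 2 and 3 differed least, with a chi-square per degree of freedom of 1.82, 2.14 and 1.92 in control, thrombin and PD03. Pairs with library 1 gave 3.03 to 4.00. Whether the first libraries shared a batch was not tested. A replicate block gave 12, 20 and 12 calls in the 3 comparisons, with Adamts17 added for thrombin. With 3 libraries in a group and without a group given PD0325901 alone, effects of the inhibitor in the absence of thrombin were not measured. Genes under about 10 counts in a library, such as Timp4 in thrombin, Mmp12 and Adamts8 in PD03 and Adamtsl2, are limited by counting error. Overlapping and antisense genes cannot be told apart here, since no source used here gives the strand setting, and transcript levels say nothing of enzyme activity.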
